A study of Mus musculus with 48 samples.

Results

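Of the 53868 accessible regions (peaks) measured by ATAC-seq in tumour-infiltrating CD8 T cells, 16 belonged to the paired inhibitor genes Id2 and Id3, 9 to Id2 and 7 to Id3. Peaks over a protein-coding gene body were assigned to that gene (of several genes, the one with a boundary nearest the middle of the peak), and other peaks to the nearest gene body up to 100 kb away. All 16 peaks are described across the 21 groups of the study, and none was removed for a low value.

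The cells were CD8 T cells of OT-1 mice, whose receptor recognises an ovalbumin peptide, and every group, controls included, expressed Cas9 and received a lentiviral guide RNA. They were moved into young or aged mice that then bore B16-OVA tumours, a mouse melanoma line made to express ovalbumin, and were recovered 15 days after tumour inoculation. The guide was Zfp219 (labelled Zfp219KO), Dusp5 (labelled Dusp5KO) or the control called OTC, and the cells were sorted on the surface proteins Slamf6 and Tim-3. Tprog (progenitor exhausted) carried Slamf6 alone, Ttran (transitory) carried both proteins, Tterm (terminally exhausted) carried Tim-3 alone, and Ttad (labelled as an age-associated dysfunctional state) carried neither. Aged hosts gave 24 libraries, 2 for each guide in each of the 4 states. Young hosts gave 24 libraries, 2 for each guide in Tprog and 3 in Ttran and in Tterm, and the Ttad libraries analysed here were all from aged hosts. All cells carried CD45.1 and a fluorescent reporter of the vector. Each library was sequenced from 5000 to 50000 sorted cells pooled from independent mice, without a record here of which mice entered which pool. The letters A and Y of the titles were read as aged and young, and the ages of the mice were not given in the labels.

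Id2 and Id3 encode helix-loop-helix proteins that lack a DNA-binding region. They pair with E proteins such as those encoded by Tcf3 and Tcf12 and keep them from binding the E-box, a short DNA motif written CANNTG. In CD8 T cells Id3 is known as a marker of memory precursor and progenitor cells, whereas Id2 is known for its role in effector and short-lived cells.

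The promoter sequences of both genes are shown because both promoters had reads in every library and differed between states in opposite directions, and because the E-box is the motif that the partners of both proteins recognise. Each is the 250 bases before the gene start on the coding strand, 5′ to 3′, from RefSeq (GRCm38.p6), with E-box matches (CANNTG, the same on both strands) in capitals. The Id2 sequence lies on the minus strand of chromosome 12, 25096093 to 25096342, and the Id3 sequence on the plus strand of chromosome 4, 136143572 to 136143821.
Id2 promoter: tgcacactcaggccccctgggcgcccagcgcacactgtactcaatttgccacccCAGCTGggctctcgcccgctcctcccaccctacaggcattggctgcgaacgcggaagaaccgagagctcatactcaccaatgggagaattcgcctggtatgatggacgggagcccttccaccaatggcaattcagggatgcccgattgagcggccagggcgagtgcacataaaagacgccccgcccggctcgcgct
Id3 promoter: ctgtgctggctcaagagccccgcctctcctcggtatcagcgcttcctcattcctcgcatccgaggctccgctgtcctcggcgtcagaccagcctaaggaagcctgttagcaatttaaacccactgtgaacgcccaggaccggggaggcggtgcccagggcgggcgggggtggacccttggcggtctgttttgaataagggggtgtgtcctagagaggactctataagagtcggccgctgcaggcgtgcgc
The Id2 window held 1 match to CANNTG, the sequence CAGCTG at 196 to 191 bases before the start, and the Id3 window held none. Of 32851 mouse promoters of the same length, 66.2% held CANNTG and 13% held CAGCTG. The letters CCAAT, searched on both strands, occurred 3 times in the Id2 window and not in the Id3 window, against 33.8% of promoters. The letters GGGCGG, also searched on both strands, occurred 1 time in Id2 and 2 times in Id3, where the matches overlapped, against 32.7% of promoters. Both windows were 62.8% G and C. A match is a description of the letters and shows no binding.

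Reads in peaks ranged from 5638413 to 29942755 per library. Replicates of a group correlated at 0.932 to 0.978 across peaks (33 pairs, peaks being no independent replicates). The CD8 T cell genes Cd8a, Cd8b1, Cd3e, Cd3d and Cd2 all had peaks, and their 35 peaks summed to 12421 to 16435 normalised counts per library. Of other cell types, the pigment genes Tyr, Dct and Tyrp1, the B cell genes Cd79a and Ms4a1 and the macrophage genes Csf1r, Lyz2 and Adgre1 had no peak; the melanoma list had peaks at Mlana and Pmel only, summing to 477 to 1068, the B cell gene Pax5 had peaks summing to 279.9 to 672, and the macrophage list had peaks at Cd14 only (192 to 388). The natural killer list had 9 peaks (2156 to 2928), with none over the body of Ncr1 and 1 over that of Klrb1c, at a mean of 8.72. The CD8 T, melanoma, Pax5 and natural killer sums were highest in young Tprog groups; their part in the results below was not tested. Accessibility does not read the edit made by a guide, so the labels of the perturbed groups were not checked here.

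The Id2 gene (chromosome 12, 25093799 to 25096092, minus strand, GRCm38) had a promoter peak over its start at 25095626 to 25096850 and a peak 164 bases past its 3′ end at 25092367 to 25093635. The other 7 Id2 peaks lay upstream at 2, 22, 36, 47, 59, 68 and 93 kb from the gene body. The strongest was the 93 kb peak (25188707 to 25191091), with a mean of 1884 normalised counts over 48 libraries, above 99.5% of all peaks. The Id2 promoter averaged 1141, and the 22 kb and 36 kb peaks were weak at 31.9 and 18. The Id3 gene (chromosome 4, 136143822 to 136145392, plus strand) had a promoter peak at 136143607 to 136144833 that covered the start and part of the body, a peak 2 kb downstream, and 5 upstream peaks at 9, 20, 26, 36 and 42 kb. The 42 kb peak (136099970 to 136101332) was the strongest of them at 414, followed by the 36 kb peak (136106423 to 136107357) at 379, and the 9 kb peak averaged 14.2. These are counts per peak and not per length, and widths differed, with 2385 bases for the Id2 93 kb peak and 1225 for the Id2 promoter. They therefore rank counts of regions, and not openness per base or openness of genes.

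Tprog cells were more accessible than Tterm cells at Id3 and less accessible at Id2. In aged OTC cells 6 of the 7 Id3 peaks were higher in Tprog and none was lower, with a median log2 fold change of 1.02. In the same comparison 7 of the 9 Id2 peaks were lower in Tprog and none was higher, with a median of -0.68. In each of the 4 omissions of a library the Id3 count was 5 and the Id2 count stayed at 7. Over all 53868 peaks 20.1% were called, 8.88% higher and 11.2% lower, with a median of 0.01. In young OTC cells all 7 Id3 peaks were higher (median 1.92) and 6 of 9 Id2 peaks were lower (median -0.57), against 26.5% of all peaks called, 13.9% higher and 12.6% lower. Called means an adjusted p under 0.05 in limma over all peaks. In sorted pools, fewer cells with an open site and less opening per cell cannot be told apart.

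The Id3 promoter was higher in every Tprog library than in any library of another state, at 436 or more against 304 or less. In aged OTC cells its 2 Tprog libraries had 489 and 466 normalised counts, and its 2 Tterm libraries had 145 and 182. In young OTC cells the 2 Tprog libraries had 522 and 525, and the 3 Tterm libraries had 140.3, 141 and 132. Tprog was thus high and Tterm low in each host age, with no overlap. The log2 fold change was 1.55 ± 0.18 (SE; a 2.92-fold change) in aged and 1.92 ± 0.17 (3.79-fold) in young hosts, with limma adjusted p of 6.39e-11 and 6.65e-17. Across all 3 guides the 6 aged Tprog libraries ran from 436 to 531 (median 465) and the 6 aged Tterm libraries from 122 to 182 (median 156).

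The Id3 peak 36 kb upstream had the widest fold range of group means at Id3 (8.9-fold) apart from the weak 9 kb peak. Its young OTC values were 776 and 781 in Tprog, against 92.9, 88.8 and 92.8 in Tterm. Its aged OTC values were 738 and 783 in Tprog, against 303 and 291 in Tterm. Tprog was high in both host ages, and every young Tterm library was lower than both aged ones. The log2 fold change was 3.08 ± 0.16 (SE; 8.43-fold) in young and 1.35 ± 0.18 (2.55-fold) in aged hosts, with limma adjusted p of 2.15e-30 and 1.56e-09. The 20 kb peak (136122590 to 136124035) was 4.6-fold higher in young Tprog and 2.03-fold higher in aged Tprog. The strongest Id3 peak, at 42 kb, was 1.41 ± 0.14 and 0.99 ± 0.15 higher on the log2 scale. The weak 9 kb peak was called in young hosts (2.75 ± 0.74) and not in aged hosts (1.27 ± 0.82, adjusted p = 0.305 in limma).

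At Id2 the changes were smaller and reached 93 kb from the gene. The 68 kb peak (25164363 to 25166344) had 430.3 and 411 normalised counts in aged OTC Tprog, against 814 and 822 in Tterm. In young OTC cells it had 484 and 447 in Tprog, against 788, 784 and 767 in Tterm. Tprog was the low state in each host age without overlap. On the log2 scale the difference was -0.96 ± 0.10 (SE, adjusted p = 2.39e-12 in limma) in aged and -0.74 ± 0.10 (6.32e-10) in young hosts. The peak 2 kb upstream (25098324 to 25099990) was also lower in Tprog, by log2 values of -0.82 ± 0.11 in aged and -0.86 ± 0.10 in young hosts. The 93 kb peak had 1499 and 1482 in aged OTC Tprog against 2064 and 2202 in Tterm, and 1739 and 1688 against 2125, 2162 and 2030 in young hosts, a difference of -0.52 ± 0.07 and -0.30 ± 0.06.

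The Id2 promoter was lower in Tprog in aged hosts, and in young hosts the difference did not pass the test. Aged OTC Tprog libraries had 815 and 909 normalised counts and Tterm libraries 1255 and 1196, a log2 difference of -0.51 ± 0.08 (SE, limma adjusted p = 9.26e-07). Young OTC Tprog libraries had 1193 and 1047 against 1182, 1298 and 1276 in Tterm, so the ranges overlapped, and the difference of -0.16 ± 0.08 was not called (adjusted p = 0.107). The difference between these 2 host-age results was -0.35 ± 0.11 and also was not called (adjusted p = 0.0844). The 22 kb and 36 kb peaks were not called in either age, with standard errors of 0.53 to 0.66 on the log2 scale.

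**Figure D1:**
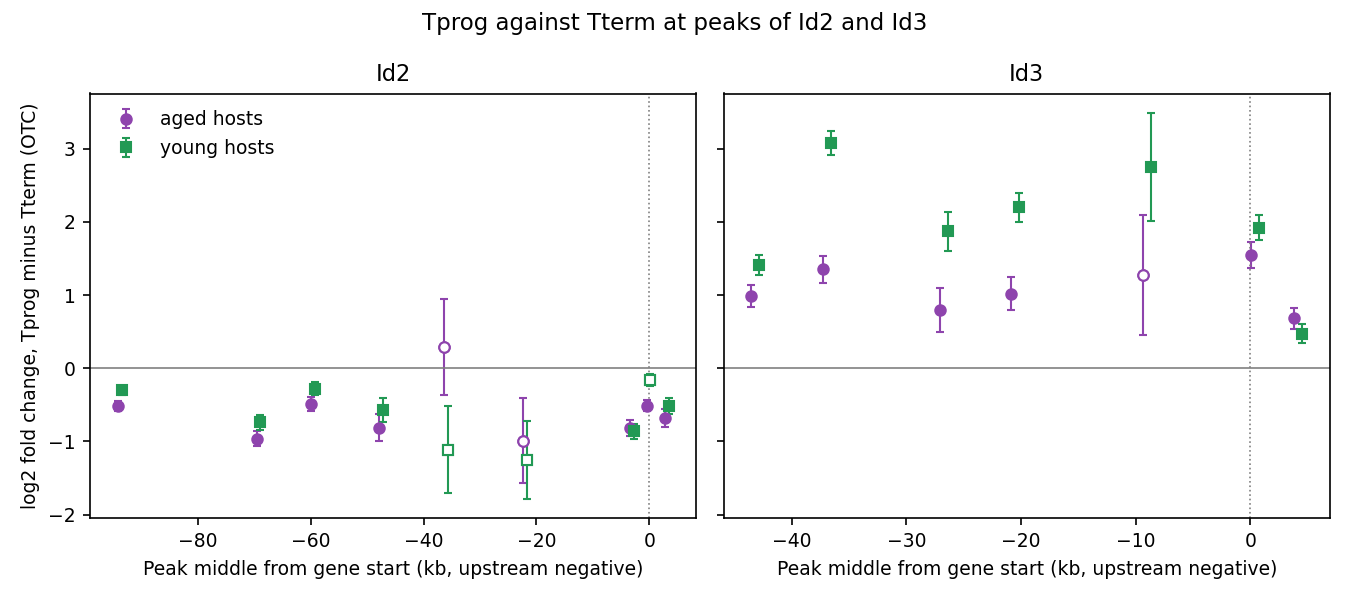
Each point is a peak of Id2 (left) or Id3 (right), placed by the distance of its middle from the gene start in kb, with its log2 fold change of Tprog minus Tterm in OTC cells; bars are standard errors, and open symbols were not called. Of the Id3 points all lie above 0, and the young value at 36 kb upstream reaches 3.08, whereas the called Id2 points lie between -0.96 and -0.28.

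The same directions held in the perturbed groups, each compared within its own libraries. Tprog minus Tterm gave 7 lower Id2 and 7 higher Id3 peaks in aged Zfp219 cells (10.4% of all peaks lower and 8.38% higher), 6 and 7 in young Zfp219 cells (13.6% and 13.3%), 6 and 6 in aged Dusp5 cells (12.6% and 10.3%), and 7 and 7 in young Dusp5 cells (14.5% and 15.3%). Over these 4 comparisons and the 2 of OTC, 5 Id2 peaks were lower in all 6, namely the 3′ flank and the peaks at 2, 59, 68 and 93 kb. The Id2 promoter was lower in 5 of 6 and the 47 kb peak in 4 of 6. Of the Id3 peaks, 6 were higher in all 6 comparisons and the 9 kb peak in 4 of 6. Log2 fold changes of the Id3 promoter ran from 1.55 to 2.01, and those of the 36 kb peak from 1.35 to 3.10.

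Ttran cells, positive for both sorting proteins, differed from Tterm at no Id2 peak that passed the test. In aged OTC cells 0 Id2 peaks were called in Ttran minus Tterm and 2 had an unadjusted p under 0.05. In young OTC cells none was called and 0 had such a p. The tools edgeR and DESeq2 also called 0 Id2 peaks in both ages. At Id3, 1 of 7 peaks was higher in aged Ttran, the 42 kb peak (0.60 ± 0.15, limma adjusted p = 0.0138), against 1.87% of all peaks higher and 1.35% lower; it was not called without aged OTC Tterm replicate 1 or aged OTC Ttran replicate 2. In young hosts 4 of 7 Id3 peaks were higher in Ttran than in Tterm, against 5.02% of all peaks higher and 3.36% lower. The 36 kb peak led them, with 249.9, 192 and 145 normalised counts in Ttran, all above the 3 Tterm libraries, a log2 fold change of 1.05 ± 0.14 (adjusted p = 6.78e-08). Tprog against Ttran, which uses the same Tprog libraries as above, gave 7 lower Id2 and 5 higher Id3 peaks in aged OTC (9.99% of all peaks lower and 6.98% higher) and 6 and 7 in young OTC (9.07% and 7.82%). The aged Id3 count of 5 fell to 3 without aged OTC Tprog replicate 1, Tprog replicate 2 or Ttran replicate 1. The aged Id2 count of 7 was 5 to 6 over the 4 omissions, and the young Id2 count of 6 was 4 to 6 over 5 omissions.

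Ttad cells, which carried neither sorting protein, lay between Tprog and Tterm in the summed values of both genes. The 7 Id3 peaks summed to 2208 and 2076 in aged OTC Ttad, against 2824 and 2720 in Tprog and 1230 and 1350 in Tterm. The 9 Id2 peaks summed to 5584 and 5608, against 4486 and 4462 in Tprog and 6677 and 6972 in Tterm. This place was not particular to Ttad. Aged OTC Ttran also lay between them, nearer to Tterm, with Id3 sums of 1482 and 1655 and Id2 sums of 6355 and 6646. Against Tprog, 4 of 9 Id2 peaks were higher in aged OTC Ttad and 1 of 7 Id3 peaks was lower, with 3.82% of all peaks higher and 2.73% lower. That Id3 peak was the promoter: the Ttad libraries had 211 and 257 normalised counts, overlapping Ttran (138 and 223) and under Tprog (489 and 466), which is -1.03 ± 0.18 (SE) from Tprog on the log2 scale (limma adjusted p = 5.17e-05). The 36 kb peak stood higher in Ttad, with 672 and 565 against 738 and 783 in Tprog and 303 and 291 in Tterm. It was 1.05 ± 0.18 above Tterm (adjusted p = 1.06e-05), and its difference from Tprog of -0.30 ± 0.18 was not called (adjusted p = 0.355). Whether the 2 peaks differed from each other in this respect was not tested. Of the 4 higher Id2 peaks, the 68 kb peak (0.49 ± 0.10) and the 93 kb peak (0.32 ± 0.07) kept their call in all 4 omissions of a library. The promoter (0.41 ± 0.08) did not without Tprog replicate 1 (0.33, adjusted p = 0.0559) or Ttad replicate 1 (0.32, 0.0546), and the 2 kb peak (0.34 ± 0.11) did not without Tprog replicate 1 (0.16, 0.671) or Ttad replicate 2 (0.21, 0.435). After quantile normalization the 93 kb difference was 0.18 (limma adjusted p = 0.0891).

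Against Tterm, aged OTC Ttad had 4 lower Id2 peaks (median -0.44) and 4 higher Id3 peaks (median 0.68), with 4.26% of all peaks lower and 3.02% higher. Leaving out a library lowered these counts: Id2 to 2 without Ttad replicate 1 or Tterm replicate 1 and to 1 without Tterm replicate 2, and Id3 to 2 without either Ttad library and to 1 without Tterm replicate 1. The 36 kb Id3 call and the 68 kb Id2 call (-0.47 ± 0.10, limma adjusted p = 0.00113; 607 and 573 against 814 and 822) held in each of the 4 omissions. Against Ttran, 2 Id2 peaks were lower and 3 Id3 peaks higher in Ttad, with 4.72% of all peaks lower and 3.02% higher. No peak of Id2 or of Id3 was called there without Ttad replicate 1, none of Id2 without Ttran replicate 2, and none of Id3 without Ttran replicate 1. In the Zfp219 and Dusp5 groups the Id3 promoter was again lower in Ttad than in Tprog (-0.71 ± 0.18 and -0.92 ± 0.18) and the Id2 68 kb peak higher (0.37 ± 0.10 and 0.45 ± 0.10). The Id3 36 kb peak did not stay near its Tprog level in Zfp219 cells, where its mean was 348 in Ttad against 698 in Tprog. In Dusp5 cells these means were 558 and 792, and in OTC cells 619 and 761. In Zfp219 cells 4 Id2 peaks were higher and 2 Id3 peaks lower (4.35% of all peaks higher, 3.3% lower), and in Dusp5 cells 3 of each (4.58% and 2.75%).

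**Figure D2:**
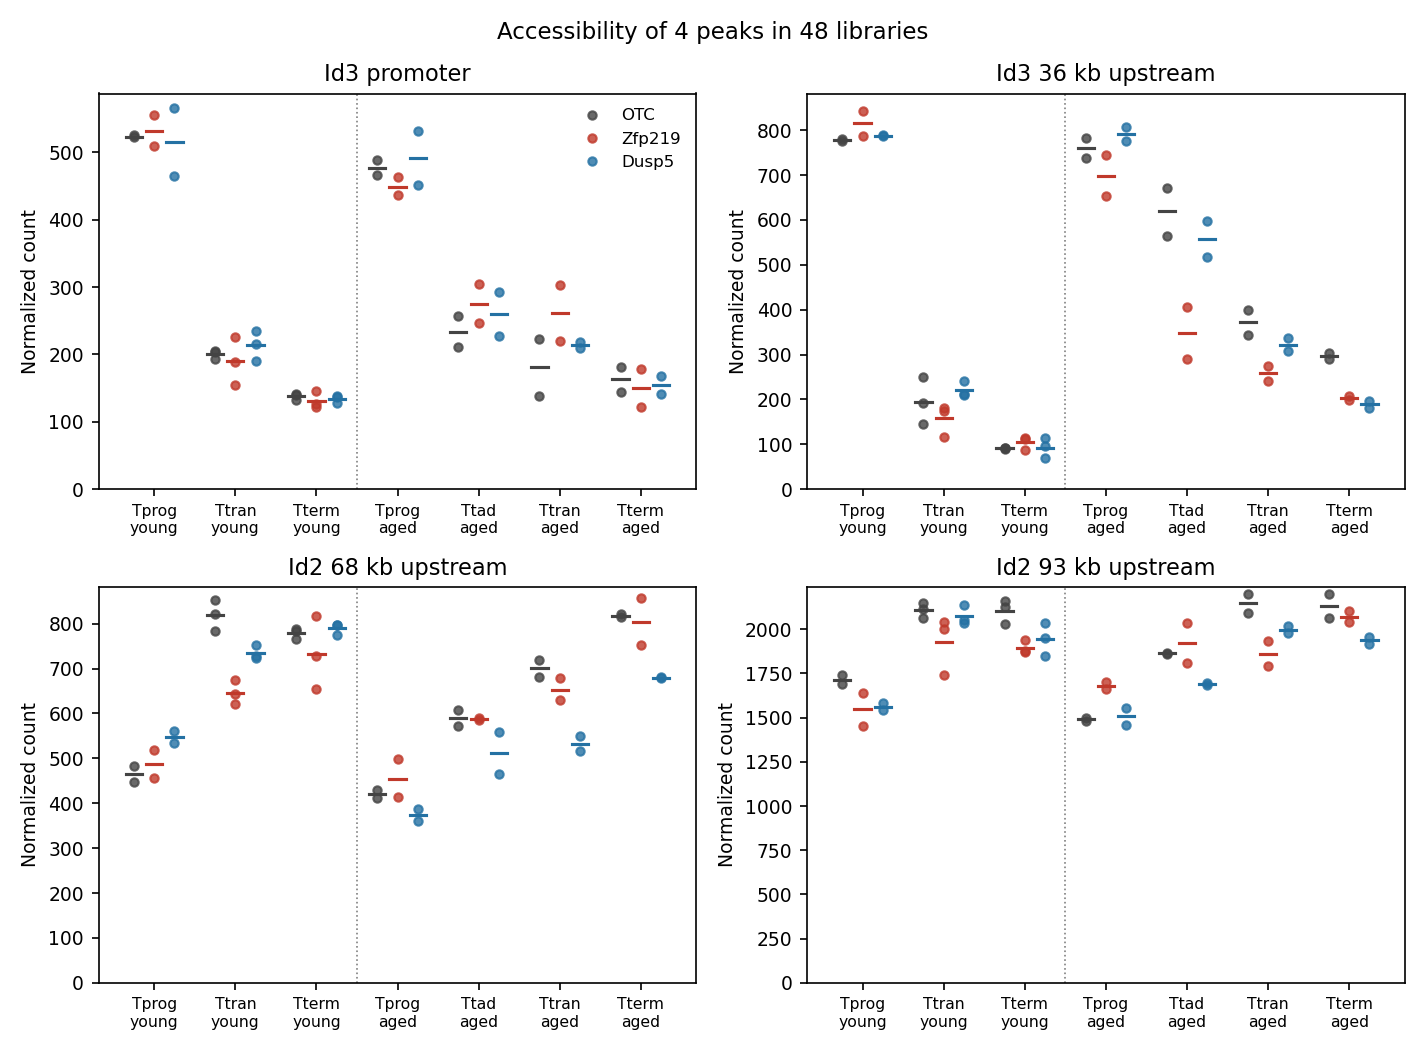
Normalised counts (vertical axes, from 0) of 4 peaks in each library, by sorted state and host age, with points for libraries coloured by guide and short lines for group means. The Id3 promoter is high in the 12 Tprog libraries alone (436 to 565), the Id3 36 kb peak is intermediate in aged Ttad (291 to 672), and the medians of both Id2 peaks are lowest in Tprog.

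In OTC cells the Id3 peaks from 36 to 9 kb upstream were more accessible in aged hosts, and the Id3 promoter did not pass the test for age. Averaged over Tprog, Ttran and Tterm of OTC, 4 of 7 Id3 peaks were higher in aged hosts, at 36, 26, 20 and 9 kb, and 4 of 9 Id2 peaks were lower; the medians were 0.57 and -0.14. Here 36.5% of all peaks were called, 17.3% higher and 19.1% lower, so these counts are to be read against a broad shift. The 36 kb peak was 0.87 ± 0.10 higher (SE, limma adjusted p = 1.15e-12) and the 20 kb peak 0.88 ± 0.12 (3.60e-09), while the promoter differed by -0.03 ± 0.10 (adjusted p = 0.857). The sample numbers in the column names restart with each host age, so a difference between the 2 numbered sets and a difference of host age cannot be told apart. In Zfp219 cells the same average gave 3 higher and 1 lower Id3 peak (14.7% of all peaks higher, 15.6% lower), and 2 lower Id2 peaks. The higher Id3 peaks were those at 36 and 26 kb and the peak 2 kb downstream (0.21 ± 0.08). The upstream 42 kb peak was lower (-0.31 ± 0.08, limma adjusted p = 0.00219), and the 20 kb peak was not called (0.29 ± 0.12, adjusted p = 0.0596). In Dusp5 cells 3 Id3 peaks were higher, at 36, 26 and 20 kb, and 5 Id2 peaks lower (14.5% and 17.3% of all peaks).

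In OTC cells taken by state, the age calls at Id3 lay in Ttran and Tterm. In OTC Tprog 0 of 7 Id3 peaks were called between ages (6.36% of all peaks were higher and 9.04% lower), and 0 had an unadjusted p under 0.05. In Ttran 3 of 7 were higher in aged hosts (8.73% of all peaks higher, 9.58% lower), and in Tterm 3 of 7 (10.2% and 8.77%). At the 36 kb peak aged Tterm stood 1.69 ± 0.16 above young Tterm on the log2 scale (limma adjusted p = 1.06e-14), at 303 and 291 against 92.9, 88.8 and 92.8 normalised counts. At the 20 kb peak aged Tterm had 148 and 201 and young Tterm 61.9, 62.9 and 64.7, a difference of 1.43 ± 0.20 (adjusted p = 3.11e-08). Aged libraries were above all young ones at both peaks. The other guides also gave calls in the opposite direction. In Zfp219 Tprog the 42 kb peak was lower in aged hosts (-0.76 ± 0.15, limma adjusted p = 3.01e-04; 409 and 434 against 797 and 636), the only Id3 call there, with 5.66% of all peaks higher and 6.14% lower. In Dusp5 Tterm 3 Id3 peaks were higher and the peak 2 kb downstream was lower (-0.49 ± 0.13, adjusted p = 0.00337), with 8.96% and 9.23% of all peaks.

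The test of the difference itself, Tprog minus Tterm in aged less that in young OTC cells, called 2 of 7 Id3 peaks and no Id2 peak, with 0.512% of all peaks higher and 1.81% lower. The 36 kb peak gave -1.72 ± 0.24 (limma adjusted p = 2.00e-07) and held in all 9 omissions of a library. The 20 kb peak gave -1.18 ± 0.30 (adjusted p = 0.0157). That call was lost in 5 of the 9 omissions, without either aged OTC Tprog library, aged OTC Tterm replicate 2 or either young OTC Tprog library, where the value was between -1.20 and -0.96 and the adjusted p between 0.0525 and 0.169. For Id2, 2 peaks had an unadjusted p under 0.05, and DESeq2 called 1 and edgeR 0. The same contrast, computed after the OTC result was seen, gave -1.18 ± 0.24 (adjusted p = 0.00341) at the 36 kb peak in Zfp219 cells and -1.04 ± 0.24 (0.00188) in Dusp5 cells. In all, 2 lower Id3 peaks were called in Zfp219 cells and 2 lower and 1 higher in Dusp5 cells. The higher one was the peak 2 kb downstream (0.73 ± 0.19, adjusted p = 0.00682). The 20 kb peak was called in Dusp5 cells (-1.33 ± 0.30) and not in Zfp219 cells (-0.74 ± 0.30, adjusted p = 0.317). Of all peaks 0.213% were higher and 0.312% lower in Zfp219 cells, and 3.54% and 4.38% in Dusp5 cells.

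At Id2 the 4 peaks called in OTC cells were all lower in aged hosts. On the 3-state OTC average the 2 kb peak was lower in aged hosts (-0.30 ± 0.06, limma adjusted p = 2.56e-05), and the promoter differed by -0.14 ± 0.05 (adjusted p = 0.00786). At the 2 kb peak the same average was 0.02 ± 0.06 in Zfp219 cells (adjusted p = 0.872) and -0.21 ± 0.06 in Dusp5 cells (0.00467). The aged OTC libraries behind the 2 kb value also enter the Zfp219 comparisons of that peak below. The promoter call was lost without aged OTC Tprog replicate 1, aged OTC Ttran replicate 1 or young OTC Tprog replicate 1, with adjusted p between 0.0552 and 0.137. The weak 22 kb peak differed by -0.98 ± 0.31; it was not called without aged OTC Ttran replicate 2 or young OTC Tprog replicate 1, nor with a replicate block (-0.88, adjusted p = 0.0552). Without young OTC Tprog replicate 1 the count of 4 Id2 peaks became 2. By state, 3 of 9 Id2 peaks were lower in aged Tprog (9.04% of all peaks lower), 1 in aged Ttran (9.58%) and 1 in aged Tterm (8.77%), the latter counts being near the share of all peaks. The Tprog count was 1 without aged OTC Tprog replicate 1 and 0 without young OTC Tprog replicate 1. The Ttran count was 0 without aged OTC Ttran replicate 2 or young OTC Ttran replicate 2, and the Tterm count was 0 without aged OTC Tterm replicate 1 or young OTC Tterm replicate 2 or 3.

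**Figure D3:**
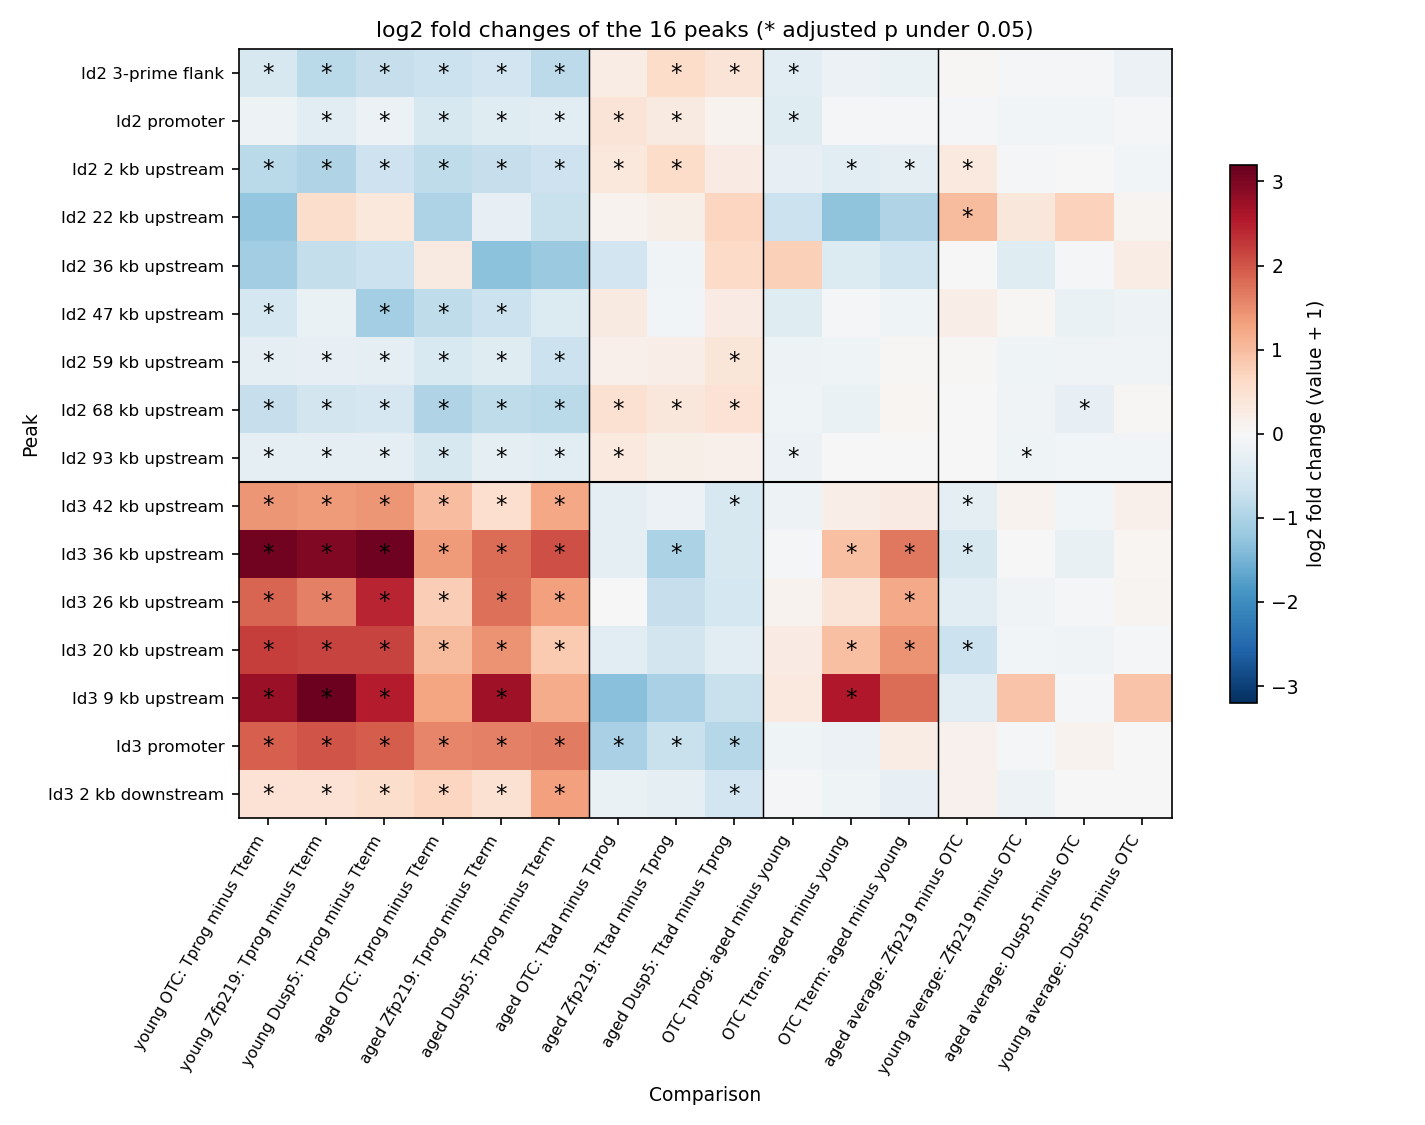
Log2 fold changes of the 16 peaks (rows) in 16 comparisons (columns), red for higher and blue for lower, with a star where limma's adjusted p was under 0.05. Tprog minus Tterm colours the Id3 rows red and the Id2 rows mostly blue in all 6 columns, the aged minus young columns colour the Id3 peaks from 36 to 9 kb upstream in Ttran and Tterm, and the Zfp219 and Dusp5 columns are paler.

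The Zfp219 guide was followed by lower accessibility at 3 upstream Id3 peaks in aged hosts. Averaged over the 4 aged states, Zfp219 minus OTC lowered 3 of 7 Id3 peaks and raised 2 of 9 Id2 peaks, with 25.8% of all peaks called (12.1% higher, 13.7% lower) and medians of -0.35 and 0.04. The 3 Id3 peaks were those at 42 kb (-0.32 ± 0.08, SE), 36 kb (-0.51 ± 0.09) and 20 kb (-0.68 ± 0.11), with limma adjusted p of 7.97e-04, 2.60e-06 and 8.26e-07. Each kept its call in all 16 omissions of a library. The Id3 promoter was not among them.

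At the 20 kb peak the aged Zfp219 libraries had 235 and 286 normalised counts in Tprog, 184 and 161 in Ttad, 133 and 126 in Ttran and 102 and 89.6 in Tterm. The aged OTC libraries had 357 and 347, 275 and 277, 233 and 209, and 148 and 201. Zfp219 was lower in all 4 states with no overlap within a state. The 36 kb peak showed its largest gap in Ttad, with 405 and 291 in Zfp219 against 672 and 565 in OTC (-0.84 ± 0.18, limma adjusted p = 5.28e-04). In that state 2 Id3 peaks and 1 Id2 peak were called, against 3.66% of all peaks higher and 4.56% lower; the Id3 count was 1 without aged OTC Ttad replicate 1 or 2 or Zfp219 Ttad replicate 1 and 0 without Zfp219 Ttad replicate 2, and the Id2 count was 2 without that last library.

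In the other aged states Zfp219 gave mixed or few calls. In Ttran 3 Id3 peaks were lower and the Id3 promoter was higher (0.55 ± 0.18, limma adjusted p = 0.0293), with 1 Id2 peak higher and 1 lower and 5.92% of all peaks higher and 8.29% lower. The Id3 count of 4 was 2 without either aged OTC Ttran library or Zfp219 Ttran replicate 1 and 0 without Zfp219 Ttran replicate 2; the Id2 count of 2 was 1 without aged OTC Ttran replicate 2 or either Zfp219 Ttran library. In Tterm 1 Id3 peak was called, at 20 kb (-0.85 ± 0.22; 1.06% of all peaks higher, 2.51% lower), and it was lost without aged OTC Tterm replicate 2 or either Zfp219 Tterm library. In Tprog 0 of the 16 peaks were called by limma, with 3 Id2 peaks and 1 Id3 peak at an unadjusted p under 0.05 (1.11% of all peaks called higher, 1.45% lower). The upstream Id2 peak at 2 kb rose on the aged average (0.32 ± 0.05, adjusted p = 2.37e-06), and its Ttad libraries had 698 and 723 with Zfp219 against 459 and 549 with OTC. The other called Id2 peak was the weak 22 kb peak (1.02 ± 0.29), not called without aged OTC Ttad replicate 2 (0.68, adjusted p = 0.0712).

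In young hosts the Zfp219 guide left Id3 with no called peak on the 3-state average, with 1.92% of all peaks higher and 5.15% lower. The young 20 kb values were 290.4 and 285 in Zfp219 Tprog against 289 and 299 in OTC, and 40.4, 84.6 and 73.1 in Tterm against 61.9, 62.9 and 64.7, so the groups overlapped. The difference between ages, over the 3 shared states, was called at the Id3 peaks at 42 kb (-0.42 ± 0.12) and 20 kb (-0.59 ± 0.17), at the Id3 peak 2 kb downstream (0.36 ± 0.11) and at the Id2 peak 2 kb upstream (0.32 ± 0.08). Limma adjusted p was 0.0137, 0.0172, 0.0221 and 0.00845, and 4.09% of all peaks were higher and 5.01% lower. The 42 kb call was lost without aged OTC Tterm replicate 2 or aged Zfp219 Ttran replicate 2, the 20 kb call without aged OTC Tterm replicate 2, and the Id2 call without aged OTC Tprog replicate 1 (0.26, adjusted p = 0.0511). The count of 3 Id3 peaks was 1 without either of the first 2 libraries. The 36 kb peak gave -0.38 ± 0.14 and was not called (adjusted p = 0.0587). The only young call on the average was the Id2 93 kb peak, at -0.14 ± 0.03 (adjusted p = 0.00223), which was -0.06 after quantile normalization (adjusted p = 0.286). The count of young Id2 calls was 2 without young Zfp219 Tprog replicate 1 or Ttran replicate 3. In young Ttran alone the Id2 68 kb peak was lower with Zfp219 (-0.34 ± 0.09, adjusted p = 0.00635; 674, 621 and 643 against 821, 852 and 783), with 1.65% of all peaks higher and 4.23% lower.

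The Dusp5 guide, compared with the same OTC libraries, changed few of these peaks. On the aged average the Id2 68 kb peak was lower by -0.26 ± 0.05 on the log2 scale (SE, limma adjusted p = 1.41e-04), against 4.35% of all peaks higher and 7.87% lower. That call held in all 16 omissions of a library, in which the value was between -0.29 and -0.23. Of the omissions, 8 (aged Dusp5 Tprog 1 and 2, Dusp5 Tterm 1 and 2, OTC Ttad 1, OTC Tterm 1, OTC Ttran 1 and 2) gave 2 or 3 Id2 calls. No Id3 peak was called by limma (1 had an unadjusted p under 0.05), 1 was by edgeR and 1 by DESeq2, and 1 was by limma without aged OTC Ttad replicate 2. The 68 kb peak had 387 and 359.8 normalised counts in aged Dusp5 Tprog, 516 and 549 in Ttran and 678 and 681 in Tterm, each under both OTC libraries of the state (430.3 and 411, 719 and 682, 814 and 822). In Ttad the Dusp5 libraries had 466 and 559.8 and the OTC libraries 607 and 573. The young Dusp5 Tprog libraries, at 534 and 560.4, were above the OTC ones at 484 and 447. In the other young states the Dusp5 mean was under the OTC mean in Ttran (735 against 819) and near it in Tterm (791 against 779). The difference between ages was -0.31 ± 0.08 (adjusted p = 0.0107), with 1.27% of all peaks higher and 2.73% lower, and it was the only call among the 16 peaks.

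In single aged states Dusp5 gave 1 Id2 call in Ttran (68 kb, -0.40 ± 0.10; 1.36% of all peaks higher, 2.44% lower) and 1 Id3 call in Tterm (36 kb, -0.65 ± 0.18, limma adjusted p = 0.0187; 1.55% higher, 2.56% lower). The Tterm values of the 36 kb peak were 182 and 196 with Dusp5, 208 and 198 with Zfp219 and 303 and 291 with OTC; both perturbed groups were compared with those same 2 OTC libraries. The Dusp5 Tterm call was lost in each of the 4 omissions of a library, and the Ttran call without either Dusp5 library or aged OTC Ttran replicate 1. In young hosts 0 of 16 peaks were called on the average (1.8% of all peaks higher, 2.02% lower), where 3 Id2 and 2 Id3 peaks had an unadjusted p under 0.05 and edgeR and DESeq2 called 1 Id2 peak each. Without young Dusp5 Tprog replicate 1, limma called 1 Id2 peak.

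The balance of summed Id3 to summed Id2 values was highest in Tprog and lowest in Tterm. Between Ttran and Tterm the Id2 sums overlapped in young OTC cells (7091, 6924 and 6937 against 7016, 7231 and 7027), while the Id3 sums did not (1283, 1209 and 1229 against 919, 917 and 840.3). In aged OTC cells neither overlapped, with Id2 sums of 6355 and 6646 in Ttran against 6677 and 6972 in Tterm. The aged Id3 sums were 1482 and 1655 against 1230 and 1350. The ratio of summed Id3 to summed Id2 values was 0.629 and 0.61 in aged OTC Tprog, 0.395 and 0.37 in Ttad, 0.233 and 0.249 in Ttran and 0.184 and 0.194 in Tterm. In young OTC cells it was 0.53 and 0.538 in Tprog, 0.181, 0.175 and 0.177 in Ttran, and 0.131, 0.127 and 0.12 in Tterm. The states kept this order with no overlap among OTC libraries of an age. Over all guides the aged medians were 0.62, 0.361, 0.241 and 0.173 and the young medians 0.591, 0.179 and 0.132. Aged Zfp219 Ttad, at 0.285 and 0.259, was under the OTC and Dusp5 (0.353 and 0.412) Ttad libraries. This was not particular to Ttad. Aged Zfp219 was also under OTC and Dusp5 in Tprog (0.471 and 0.538) and in Ttran (0.22 and 0.227). In aged Tterm Zfp219 (0.162 and 0.161) was under OTC and overlapped Dusp5 (0.158 and 0.185).

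**Figure D4:**
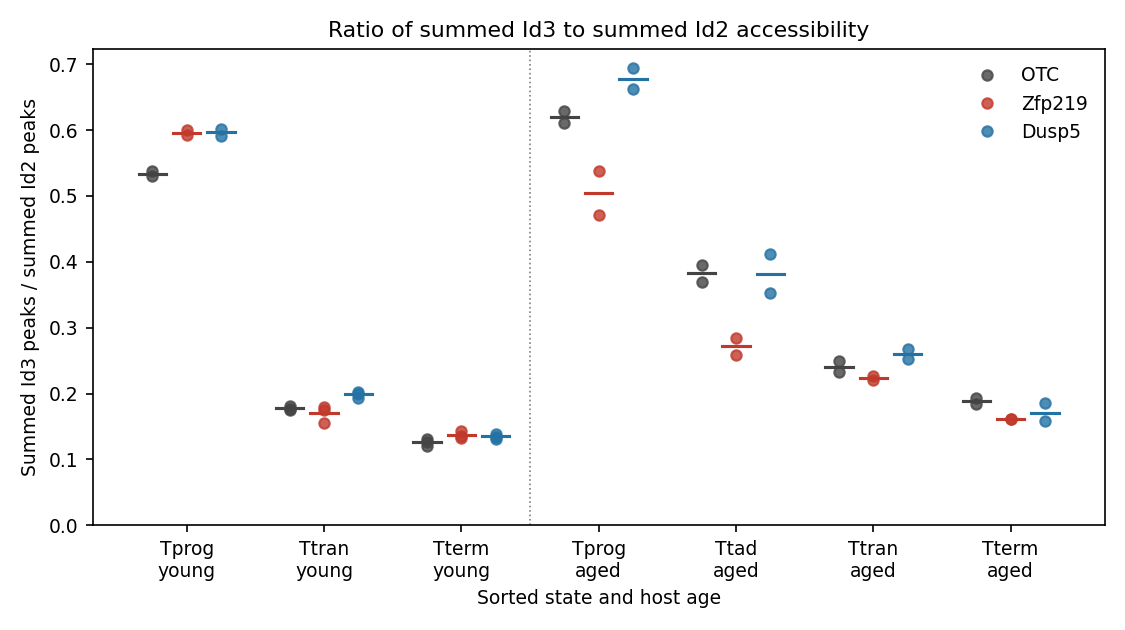
The ratio of summed Id3 to summed Id2 normalised counts (vertical axis, from 0) in each of 48 libraries, by sorted state and host age, coloured by guide, with short lines for group means. Tprog lies between 0.471 and 0.694, aged Ttad between 0.259 and 0.412, and Tterm between 0.12 and 0.194. Ttran lies between 0.22 and 0.267 in aged hosts, overlapping aged Ttad, and between 0.156 and 0.203 in young hosts.

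Over the 21 group means of log2 values, Pearson's r was 0.61 to 0.96 among the Id3 peaks (median 0.85) and 0.20 to 0.93 among the Id2 peaks (median 0.78). Between an Id2 and an Id3 peak it was -0.92 to -0.19 (63 pairs, median -0.75), and -0.91 between the sums. These are descriptions over groups that share states, hosts and guides. In the order of the 21 groups, neighbours overlapped in their library values in 13 of 20 steps at the Id3 36 kb peak, 17 of 20 at the Id3 promoter, 14 of 20 at the Id2 68 kb peak and 16 of 20 at the Id2 93 kb peak. The 6 Tprog groups headed the order at both Id3 peaks. At the 36 kb peak the mean was highest in young Zfp219 Tprog (815) and lowest in young OTC Tterm (91.5); at the promoter it was highest in young Zfp219 Tprog (532) and lowest in young Zfp219 Tterm (131).

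Genes that work with the Id proteins were read from a list. Their counts are to be set beside all peaks, of which 8.88% were higher and 11.2% lower in aged and 13.9% and 12.6% in young OTC Tprog than in Tterm. The E protein genes Tcf3, Tcf4 and Tcf12 had 20 peaks, of which 4 were higher and 1 lower in aged OTC Tprog than in Tterm, and 7 and 1 in young OTC. All 4 in aged and 5 of the 7 in young hosts were peaks of Tcf12, whose strongest peak was 0.61 higher in aged (limma adjusted p = 1.30e-04) and 0.72 higher in young Tprog (5.51e-07). Id1, another family member, had 2 peaks, with 0 called in aged and 1 lower in young Tprog, and Id4 had none assigned. The Egr genes, whose products act upstream of Id3, had 11 peaks, with 5 lower in aged OTC Tprog, all at Egr2, and 1 higher and 2 lower in young. Of 7 E protein target genes 5 had peaks, 28 in all, with 7 higher and 3 lower in aged and 11 and 4 in young Tprog. Cxcr5, a chemokine receptor of follicular lymphocytes, held 6 of the 7 and 7 of the 11; its strongest peak was 0.67 higher in aged Tprog (5.93e-07) and also higher in young Tprog (2.73e-20). Cdkn1a, a cell cycle inhibitor, was lower in Tprog at its strongest peak, by log2 values of -0.66 and -0.51 (1.04e-08 and 5.07e-07).

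The genes beside Id2 and Id3 were read the same way, against the same shares of all peaks (8.88% higher and 11.2% lower in aged, 13.9% and 12.6% in young hosts). Rpl11, a ribosomal protein gene upstream of Id3, had 6 peaks assigned, 5 of them higher in aged and in young OTC Tprog. The strongest (chromosome 4, 136088351 to 136090425) lay 34958 bases from Rpl11, between it and Id3, and was 0.94 and 1.53 higher (limma adjusted p = 4.95e-11 and 1.25e-23). E2f2, on the other side, had 7 peaks with 1 lower in each age, and its strongest peak differed by 0.02 and 0.04. Beside Id2, Kidins220 and Rnf144a had 8 peaks, with 1 higher and 1 lower in aged and 2 lower in young Tprog. The strongest Rnf144a peak (chromosome 12, 26400900 to 26402332) lay outside the 250 kb window of Id2, so these counts do not describe the near flanks of Id2 alone. The counts at E2f2 and beside Id2 are of few peaks and not far from those shares. Assignment to the nearest gene body does not show which gene a region acts on.

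Among 13179 genes, each taken by its strongest peak, those most like the Id2 93 kb peak over 21 group means were Spef1l (Pearson's r 0.969), Tmprss6 (0.968), Rhbdf2 (0.960), Hilpda (0.958) and Irf8 (0.954). Those most like the Id3 42 kb peak were Aff3 (0.952), Cbfa2t3 (0.947), the Rpl11 peak above (0.944), Mmp10 (0.943) and Mmp27 (0.942). By Spearman's rho 3 and 2 of these 5 were again among the 5 highest.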

How the data were processed

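ATAC-seq reads from 48 libraries in 21 groups were used as one table of 53868 peaks. The authors deposited normalised counts, a signal equal to reads divided by a size factor per library; dividing by its step gave whole reads at 100% of values, within 1e-06. The build was mm10, and the tools named were Bowtie2 2.2.9, SAMtools 1.3.1, Picard 2.8.0, MACS2 2.1.1 and DESeq2 1.28.1, per the submitters' processing notes, which give them no role here. Samples were grouped by their labels.

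Values were tested as log2(value + 1) with limma 3.58.1 in R 4.3.3, with a trend, 21 group means and 27 residual degrees of freedom, and Benjamini-Hochberg adjustment over all 53868 peaks; called means an adjusted p under 0.05, and a fold change on this scale understates the change of weak peaks. In all 62 comparisons were fitted. The method was also run on simulated data, and as no outcome is given here, that run is no support for the calls. Alternatives were edgeR 4.0.16 and DESeq2 1.42.0 on the recovered reads, adding 8 in place of 1 before logs, leaving out the 25% of peaks with the lowest means, 2 other scalings, library weights, the compared groups alone, 1 value per group, a replicate block, omission of each library and gene windows of 20 and 250 kb. Python 3.11.15 with pandas 2.3.3 and matplotlib 3.10.9 did the rest.

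All 16 peaks are counted. One gene of the marker lists is not reported here. Those described singly are the strongest of each gene, any over the gene body and the called peak with the largest change in each main comparison; others given with values, such as the Id2 2 kb peak in the age and Zfp219 comparisons and the Id3 36 kb peak in the guide comparisons, were chosen after their values were seen. The members and gene lists were chosen with earlier results of these data known, and the state-by-age and age contrasts within Zfp219 and Dusp5 were added after seeing the data. Libraries were pools from independent mice without a record here of which mice, so p-values measure the spread between these pools. Same-numbered libraries did not deviate together (correlations from -0.018 to 0.017), so the numbers were not taken as pairs. Zfp219 and Dusp5 were compared with the same OTC libraries.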

Additional observations from a re-analysis of the deposited data

Results flagged for a closer look

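In the contrasts named here, differences between host ages passed the test of the difference itself at 7 points. The calls for Tprog minus Tterm within Zfp219 and within Dusp5 cells, given above, are not counted among them. For Tprog minus Tterm in OTC cells, aged less young was -1.72 on the log2 scale at the Id3 peak 36 kb upstream and -1.18 at the Id3 peak 20 kb upstream. For Zfp219 minus OTC over the 3 shared states, aged less young was 0.32 at the Id2 peak 2 kb upstream, -0.42 at the Id3 peak 42 kb upstream, -0.59 at the Id3 peak 20 kb upstream and 0.36 at the Id3 peak 2 kb downstream. For Dusp5 minus OTC it was -0.31 at the Id2 peak 68 kb upstream. Of all peaks, 0.512% were higher and 1.81% lower in the first contrast, 4.09% and 5.01% in that of Zfp219, and 1.27% and 2.73% in that of Dusp5. No group had 4 or more libraries, so single libraries were not tested for standing apart.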

How the results depend on the processing

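Rescaling by medians of ratios gave each of the 48 libraries the same factor (1.014), since the deposited values already carried such a scaling, and is no test of stability. The replicate block moved 0 of 68 counts of called peaks by over 1.5 times; with the block, aged OTC Tprog minus Tterm gave 7 Id2 peaks as without it. No value changed direction. Counts that moved are given as alternative against reported. DESeq2 called 3 Id3 peaks against 1 (Zfp219, aged Tterm), and for Dusp5 1 Id2 peak against 0 (aged Tprog), 2 Id2 against 1 and 1 Id3 against 0 (aged average) and 1 Id2 against 0 (young average); for the state-by-age difference it called 1 Id2 against 0. The edgeR fit called 2 Id3 against 1 (Zfp219, aged Tterm), 2 Id2 against 1 (Zfp219, young average), and for Dusp5 1 Id3 against 0 (aged average) and 1 Id2 against 0 (young average). With a pseudocount of 8 the count for Zfp219 in aged Tterm was 2 Id3 against 1. Without the weakest 25% of peaks it was 2 against 1, with 1 Id2 against 2 (Zfp219, aged average) and, for Dusp5, 2 Id2 against 1 and 1 Id3 against 0 (aged average) and 1 Id2 against 0 (young average). Quantile normalization gave Id2 counts of 2 against 4 (Ttad minus Tprog), 1 against 2 (Ttad minus Ttran), 1 against 2 (Zfp219, aged Ttran), 4 against 2 and 0 against 1 (Zfp219, aged and young averages), 0 against 1 (Dusp5, aged Ttran) and 2 against 1 (Zfp219 by age), and Id3 counts of 1 against 2 (Zfp219, aged Ttad) and 1 against 0 (Zfp219, young Ttran). Library weights gave Id2 0 against 2 and Id3 1 against 3 (Ttad minus Ttran), Id3 3 against 1 and 1 against 2 (Zfp219, aged Tterm and Ttad), and Id2 1 against 0 (Zfp219, young Tterm; Dusp5, aged Tprog; state by age). The compared groups alone gave Id2 0 against 2 and Id3 1 against 3 (Ttad minus Ttran), Id2 2 and 3 against 1 (age in OTC Ttran and Tterm), Id3 1 against 0, 2 against 4 and 2 against 1 (Zfp219 in aged Tprog, Ttran and Tterm), Id2 1 against 0 (Zfp219, young Tterm), Id2 0 against 1 and Id3 0 against 1 (Dusp5, aged Ttran and Tterm), Id3 1 against 0 and Id2 1 against 0 (Dusp5, aged and young averages) and Id2 1 against 0 (state by age). With 1 value per group (10 residual degrees of freedom), Id2 was 1 against 0 and Id3 3 against 1 (aged Ttran minus Tterm), Id3 5 against 1 (Ttad minus Tprog) and 1 against 3 (Ttad minus Ttran), Id2 2 against 1 (age in OTC Ttran, and in Tterm), and 0 against 1 (Zfp219, young average; Dusp5 by age). Narrowing the gene window to 20 kb gave Id2 3 against 7 and Id3 3 against 6 (aged Tprog minus Tterm), 2 against 6 and 4 against 7 (young), Id2 2 and Id3 2 against 4 (Ttad minus Tterm), Id2 2 against 4 (Ttad minus Tprog), Id3 2 against 4 (age average), Id2 1 against 2 and Id3 1 against 3 (Zfp219, aged average), Id2 0 against 1 (Zfp219, young average; Dusp5, aged average) and Id3 1 against 2 (state by age); fewer peaks enter by construction. A window of 250 kb, with 36 Id2 peaks, gave Id2 counts of 22 (aged) and 25 (young) for Tprog minus Tterm, and 12 for Ttad against Tterm and 12 against Tprog. The age average gave 13, with 4 higher and 9 lower (17.3% and 19.1% of all peaks). Zfp219 gave 9 on the aged average, 5 higher and 4 lower (12.1% and 13.7%), and 7 on the young, all lower (5.15%). Dusp5 gave 7 on the aged average, all lower (7.87%), and 2 on the young, 1 higher and 1 lower (1.8% and 2.02%). The age count and the aged Zfp219 count were near the share of all peaks called, 36.5% and 25.8%. Where not stated, the cause was not tested.

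Leaving out each library in turn moved the following counts (lowest to highest). For states in aged OTC cells they were Id3 3 to 4 for Tprog minus Ttran and 0 to 1 for Ttran minus Tterm, Id2 1 to 4 and Id3 1 to 3 for Ttad minus Tterm, and 0 to 2 for either gene for Ttad minus Ttran. For age, Id2 was 0 to 2 in Tprog, 0 to 1 in Ttran and in Tterm and 2 to 4 on the average, and the state-by-age Id3 count was 1 to 2. For Zfp219, Id2 was 1 to 2 in aged Ttran, aged Ttad, young Ttran and the young average and 1 to 3 on the aged average, Id3 was 0 to 2 in aged Ttran and 0 to 1 in aged Tterm and Ttad, and by age Id2 was 0 to 1 and Id3 1 to 4. For Dusp5, Id2 was 0 to 1 in aged Ttran, Tterm and Ttad, young Tprog and the young average and 1 to 3 on the aged average, and Id3 was 0 to 1 on the aged average and 0 in each omission in aged Tterm. The Id2 and Id3 counts for Tprog minus Tterm in OTC of either age stayed within 1.5 times. Within that limit the aged Id3 count was 5 in all 4 omissions, against 6 with every library, and the young Id2 count was 5 to 7. The peaks at 22 and 36 kb of Id2 and at 9 kb of Id3 average 31.9, 18 and 14.2 normalised counts, and their standard errors of 0.47 or more in the OTC state comparisons leave moderate differences undetectable at this depth.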

Other observations

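With the limit for assignment at 250 kb in place of 100 kb, Id2 had 36 peaks and Id3 still 7. In aged OTC cells 22 of the 36 Id2 peaks were lower in Tprog than in Tterm and none was higher (median log2 fold change -0.82), against 11.2% of all peaks lower, and in young OTC cells 24 were lower and 1 higher (median -0.79), against 12.6% lower and 13.9% higher. In aged OTC Ttad, 12 of the 36 were lower than in Tterm (4.26% of all peaks) and 12 were higher than in Tprog (3.82%). These regions are nearer to Id2 than to any other protein-coding gene body, which does not show that they act on it.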
